A study of Mus musculus with 10 samples.

Results

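A set of 10 genes that move or hold zinc in mouse pancreatic islets is described here: the zinc exporters Slc30a1, Slc30a5, Slc30a7 and Slc30a8, the zinc importers Slc39a10, Slc39a11 and Slc39a13, the metallothioneins Mt1 and Mt2, and the zinc-sensing transcription factor Mtf1. They were chosen by gene symbol, out of 19861 named genes on the array, and have 11 of its 23512 probes, 2 of them for Slc30a7. The symbols themselves were picked with the difference between the genotypes already known, so that difference is given as a description, with no p, and which of them passed the threshold of the fit over all genes is given without reading anything from it. Islets came from obese db/db mice, homozygous for the db mutation in the gene of the leptin receptor, and from lean heterozygous db/+ mice. Both groups were of the C57BLKS/J background and 9 weeks old, an age at which the labels describe the db/db mice as severely hyperglycaemic, with insulin that had come down from its level at a younger age. Each group had 5 biological replicates, each hybridised to 1 array of 2 colours with the replicate's islet RNA in Cy5 and, in Cy3, a reference that the labels give as RNA from db/+ islets of that age. Values are log2 ratios of Cy5 over Cy3, so 0 means the level of the reference and -1 means a level 2-fold below it.

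All arrays had the same dye orientation, and each held a value for 22657 to 23365 probes. Precision is limited by the number of arrays. The brightest spots were often blank: of the 241 probes with a mean reference intensity of at least 15 units, 50.5% of the values were missing, which touched Slc30a8 and Mt2. Across 19567 genes, limma called 35.2% different between the genotypes at an adjusted p of 0.05, 17.1% higher and 18.1% lower in db/db, and the median log2 difference was -0.02. Of the 18636 genes with all 10 values, 26.1% had groups that did not overlap.

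Cells keep free zinc low with 2 families of carriers that work in opposite directions. Proteins of the Slc30a family take zinc out of the cytosol, across the plasma membrane or into vesicles, those of the Slc39a family bring it in, and metallothioneins are small cysteine-rich proteins that bind it. Mtf1 responds to zinc by binding short metal response elements and turning on metallothionein genes and Slc30a1. Beta cells are among the most zinc-rich cells of the body, because Slc30a8 loads insulin granules with zinc, which crystallises with insulin and is released with it.

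Promoters are shown for the 3 genes of the set that stood furthest below the reference in db/db islets, Slc30a1, Mt1 and Mt2, all known as targets of Mtf1. RefSeq sequences of the build GRCm38.p6 were matched by symbol for 9 of the 10 genes. Each window ran from 250 bases before to 50 bases after a gene start, and the cores TGCACNC and TGCGCNC were searched on both strands, with overlapping matches counted apart. The 250 bases before the start follow, 5′ to 3′ on the gene's own strand, with the matched bases in capitals. Mt1 covers chr8:94178839-94179088 on the plus strand, Mt2 covers chr8:94172368-94172617 on the plus strand, and Slc30a1 covers chr1:191906531-191906780 on the plus strand.
Mt1: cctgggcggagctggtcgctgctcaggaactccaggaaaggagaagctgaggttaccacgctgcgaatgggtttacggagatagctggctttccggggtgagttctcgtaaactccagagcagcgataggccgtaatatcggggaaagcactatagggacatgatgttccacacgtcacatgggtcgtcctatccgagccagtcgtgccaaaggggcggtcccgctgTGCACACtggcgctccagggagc
Mt2: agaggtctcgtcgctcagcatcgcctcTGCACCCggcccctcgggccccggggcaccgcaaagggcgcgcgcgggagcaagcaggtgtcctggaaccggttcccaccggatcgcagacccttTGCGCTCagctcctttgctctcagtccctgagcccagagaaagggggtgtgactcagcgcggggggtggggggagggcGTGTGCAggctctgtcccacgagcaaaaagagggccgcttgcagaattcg
Slc30a1: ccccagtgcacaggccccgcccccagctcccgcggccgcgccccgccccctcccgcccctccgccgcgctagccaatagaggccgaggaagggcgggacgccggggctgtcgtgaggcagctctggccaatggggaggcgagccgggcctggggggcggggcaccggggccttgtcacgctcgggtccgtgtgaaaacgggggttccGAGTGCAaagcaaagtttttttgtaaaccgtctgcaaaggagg

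The Mt2 window held 4 matches, at positions -223, -128, -50 and 5 from the gene start, counted to the first base of the match. Mt1 held 3, at -23, 3 and 21, and Slc30a1 held 2, at -43 and 31; matches after the start lie outside the printed stretch. Of all 32817 windows in the table, 25.7% held at least 1 match, 7.1% at least 2, 2.0% at least 3 and 0.518% at least 4. Windows rich in G and C hold the core more often: of the 9678 windows with at least 60% G and C, 45.2% held at least 1 match, 16.7% at least 2, 5.04% at least 3 and 1.31% at least 4. The windows of Slc30a1, Mt1 and Mt2 were 73.0%, 60.7% and 67.7% G and C, against a median of 52.7% over all windows. Slc30a5 and Slc39a13 had 1 match each, and Slc39a11 had 1 in the window of each of its 2 starts. No match was found in the windows of Slc30a7, Slc39a10 or Mtf1. In all, 7 of the 11 windows of these genes held the core. A match describes the letters only, and binding was not measured.

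**Figure D1:**
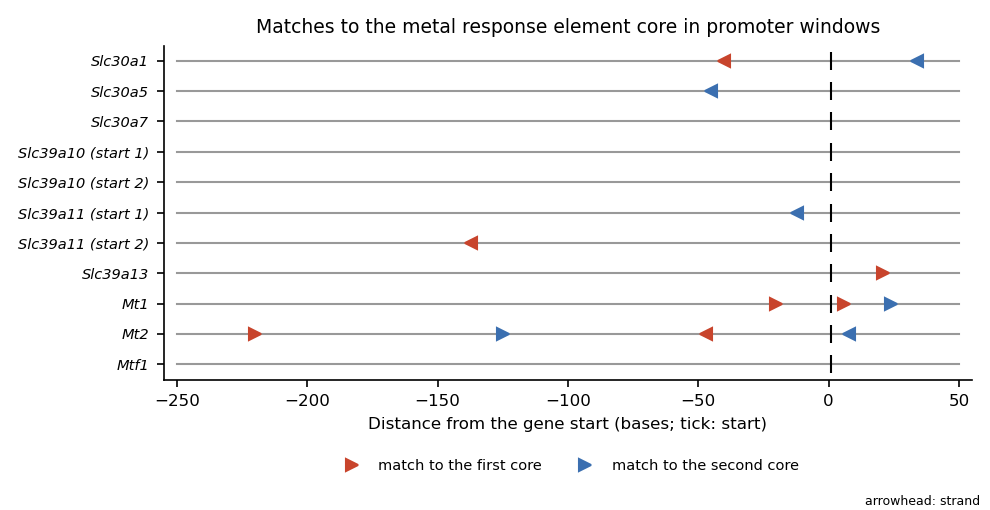
Positions of matches to the metal response cores TGCACNC (first core) and TGCGCNC (second core) in windows from 250 bases before to 50 bases after each gene start, in bases from the start. Mt2 carries 4 matches, Mt1 3 and Slc30a1 2, and the windows of Slc30a7, Slc39a10 and Mtf1 carry none.

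Mt1 was far lower in db/db islets, and Mt2 was below the reference there. The log2 ratio of Mt1, an inducible metallothionein, was -0.23, -0.31, 0.30, 0.18 and 0.27 on db/+ replicates 1 to 5 and -2.52, -2.01, -2.52, -2.18 and -2.60 on db/db replicates 1 to 5. Every db/db array lay more than the whole db/+ spread below the lowest db/+ array, and the groups did not overlap. Within db/+, replicates 1 and 2 were below the reference and replicates 3 to 5 above it. Its Cy5 signal was 1.95 to 3.59 units in db/+ and 0.43 to 0.55 units in db/db, while the Cy3 reference stayed between 1.93 and 3.15 units. The log2 difference was -2.41 ± 0.16 (SE, n = 5 and 5), a 5.30-fold lower level, and ranked 11 from the lowest among 19567 genes. In bulk islet RNA, fewer cells of a type and less RNA per cell cannot be told apart.

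Mt2, the second inducible metallothionein and the neighbour of Mt1 on chromosome 8, could be read against the reference only. In db/+ it had a value on replicate 1 alone, -0.39, and was blank on the others. On the db/db arrays it stood at -1.10, -1.12, -2.02, -1.86 and -1.94, all below that single db/+ value, with replicates 1 and 2 less low than replicates 3 to 5. The db/db mean was -1.61 ± 0.459 (SD, n = 5), 3.05-fold below the reference. Its Cy5 signal was 12.43 units on the single db/+ array and 3.96 to 7.86 units on the db/db arrays. The reference signal of Mt2 was 15.19 to 17.13 units, near the highest Cy3 value of an array (16.39 to 20.43 units), so the size of the ratio is uncertain.

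The other metallothioneins on the array did not follow. Mt3, known for its expression in brain, had a difference of 0.00 ± 0.08 (adjusted p = 0.992), and Mt4, known from stratified epithelia, read 0 on all 10 arrays at a dim signal. Of the 4 metallothionein genes listed, 3 had enough values for the fit. Mt1 was lower and 0 were higher, where 18.1% of all genes were lower and 17.1% higher. Mt1 was picked with the contrast known, so nothing is read from this count. The difference between Mt1 and Mt3 was not itself tested.

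Slc30a1, the exporter of the plasma membrane that carries zinc out of the cell, was also far lower in db/db islets. Its log2 ratio was -0.09, -0.25, 0.24, 0.59 and 0.47 on db/+ replicates 1 to 5 and -2.39, -2.37, -2.10, -2.14 and -2.28 on db/db replicates 1 to 5. The groups stood far apart, and the db/db arrays lay closer to each other (SD 0.132) than the db/+ arrays (SD 0.360). As for Mt1, db/+ replicates 1 and 2 were below the reference and the other 3 above it. In the islet channel Slc30a1 gave 0.58 to 0.86 units in db/+ and 0.12 to 0.15 units in db/db, against 0.55 to 0.69 units of reference. The difference was -2.45 ± 0.16 (SE, n = 5 and 5), a 5.46-fold lower level, which ranked 9 from the lowest. At 0.12 to 0.15 units the db/db signal was only some steps of the 0.01 rounding above 0, so the ratio is coarse there.

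Likeness of profile was measured as the root mean square difference of the log2 ratio over the 10 arrays, among the 18636 genes with all values. The 3 genes nearest to Slc30a1 were Lpin1, a phosphatidate phosphatase (0.176), the serum response factor Srf (0.222) and the lysolipid transporter Mfsd2a (0.223), and Mt1 came 7 in that order at 0.257. The 3 nearest to Mt1 were Lpin1 (0.232), Gad1, which makes GABA (0.248), and Slc30a1 (0.257). The arrays share a reference, and the distances mostly reflect the size of the difference between the genotypes, which was known when the genes were chosen, so nothing is read from them.

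**Figure D2:**
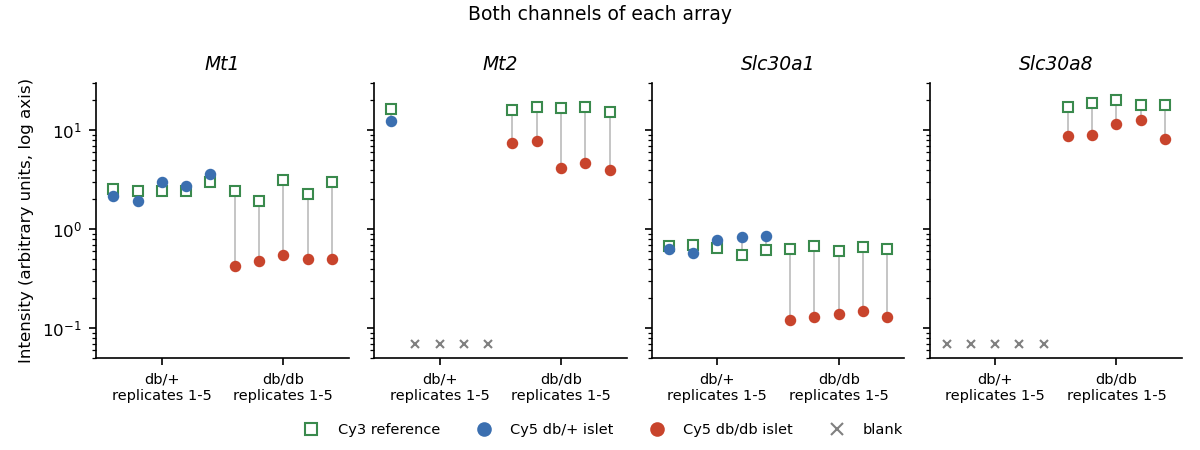
Signal of both channels in arbitrary units for genes of the set on each array, with the islet RNA in Cy5 and the db/+ reference in Cy3. For Slc30a1 the db/db islet channel reads 0.12 to 0.15 units and for Mt1 0.43 to 0.55 units, while the ranges of their reference overlap between the arrays of the 2 groups.

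Slc30a8, the carrier that fills insulin granules with zinc, was blank on all 5 db/+ arrays, so the groups cannot be compared. On db/db replicates 1 to 5 its log2 ratio was -0.98, -1.06, -0.83, -0.53 and -1.11. All 5 db/db arrays were below the db/+ reference, replicate 4 least. The mean of -0.90 ± 0.233 (SD, n = 5) is 1.87-fold below the reference. The reference signal was 17.34, 18.73, 20.37, 18.17 and 17.82 units, close to the highest Cy3 values of these arrays (17.88 to 20.43 units), and the islet signal was 8.81, 8.96, 11.45, 12.56 and 8.25 units. So near the top of the scale the size of the ratio is uncertain, and a dye effect would not cancel without db/+ values. Most fitted beta cell markers were lower on the same arrays, 8 of 12, where 18.1% of all genes were. The summed Cy5 signal of the 11 with all values was 14.44 to 15.82 units in db/db and 22.04 to 25.92 units in db/+. Kcnj11 alone had a mean of 6.80 units in db/db and 13.01 in db/+. Of the 2 markers with too few values, both blank in db/+, Slc2a2 had a mean ratio of -2.08 and Iapp of 0.29 in db/db, Iapp on 3 arrays. The part of beta cells in the Slc30a8 ratio was not tested.

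The exporters of the early secretory pathway, Slc30a5 and Slc30a7, supply zinc to enzymes made there and differed little between the groups. Slc30a5 read -0.15, -0.21, 0.06, 0.48 and 0.10 on the db/+ arrays and 0.12, 0.09, 0.43, 0.54 and 0.34 on the db/db arrays. The groups overlapped, with db/+ replicate 4 above 4 of the 5 db/db arrays, and the difference was 0.25 ± 0.14 (SE). Slc30a5 passed the threshold only with the replicate number as a block or without db/+ replicate 4. The brighter Slc30a7 probe read 0.08, 0.00, 0.14, 0.25 and 0.07 in db/+ and 0.53, 0.31, 0.65, 0.77 and 0.36 in db/db. Here the lowest db/db array exceeded the highest db/+ array, with a difference of 0.42 ± 0.09 (SE), 1.33-fold. The dimmer Slc30a7 probe, at a mean reference signal of 0.098 units, did not show this: its means were -0.12 in db/db and -0.09 in db/+, and the groups overlapped. With the mean of both probes the Slc30a7 difference was 0.19. The brighter probe was no longer past the threshold after quantile normalization, with a difference of 0.21, or with the mean ratio of the acinar markers as a covariate, with one of 0.28. Slc30a6, the partner of Slc30a5 in a shared transporter, had a difference of 0.01 ± 0.08 (adjusted p = 0.922).

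A pair of importers was higher in db/db islets, and Slc39a10 was at the bottom of the signal range. Slc39a11, an importer reported in the Golgi and nucleus of other mouse tissues, read 0.04, 0.04, -0.05, -0.04 and -0.18 in db/+ and 1.77, 1.34, 1.02, 1.04 and 1.01 in db/db. The db/+ arrays clustered around the reference, the db/db arrays all lay about 1 or more above it, and replicate 1 was highest. Its difference was 1.27 ± 0.14 (SE), 2.41-fold, which ranked 376 from the highest. The islet signal was 6.13 to 10.62 units in db/+ and 18.08 to 26.2 units in db/db, close to the highest Cy5 values of the db/db arrays (18.33 to 26.94 units), so its size is uncertain.

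Slc39a13, an importer that releases zinc from Golgi and vesicle stores and is known from connective tissue, read -0.10, 0.18, -0.11, -0.04 and -0.01 in db/+ and 1.16, 0.80, 0.58, 0.62 and 0.82 in db/db. The lowest db/db array was above the highest db/+ array. Its difference was 0.81 ± 0.11 (SE), 1.75-fold, ranked 938 from the highest, with islet signals of 1.00 to 1.29 units in db/+ and 1.69 to 2.59 units in db/db. Markers of stellate cells, which make connective tissue, summed to 3.31 to 6.61 units of Cy5 in db/db and 1.13 to 2.3 units in db/+. Of the 7, 6 were higher, where 17.1% of all genes were, and their part in the Slc39a13 difference was not tested.

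Slc39a10, an importer of the plasma membrane, gave 0.03 to 0.06 units in either group. It read 0, 0.26, 0, 0 and 0 in db/+ and -0.32, 0, 0.32, 0 and -0.42 in db/db, steps set by rounding to 0.01 units. The Slc39a10 groups overlapped, and the difference was -0.14 ± 0.13 (SE). From the Cy5 signal alone it was -0.43 and past the threshold.

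**Figure D3:**
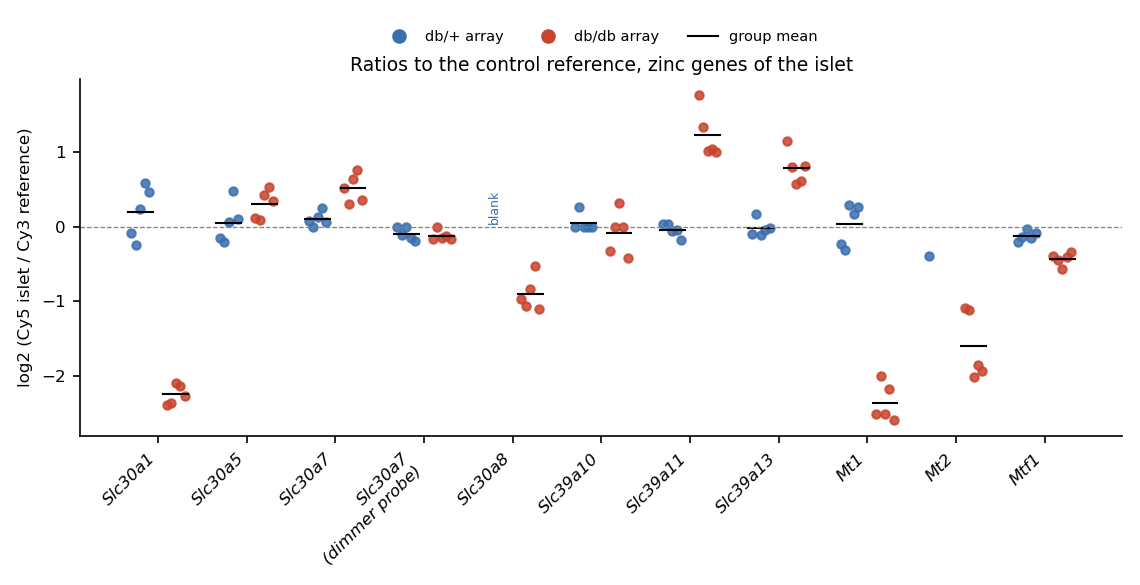
Log2 ratio of islet RNA over the db/+ reference for each probe of the set, 1 point per array, with db/+ and db/db side by side and the group mean as a bar. Slc30a1 and Mt1 lie between -2.60 and -2.01 on every db/db array, Slc39a11 and Slc39a13 lie above all their db/+ arrays, and Slc30a8 has no db/+ point.

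Mtf1 itself was slightly lower in db/db. It read -0.20, -0.14, -0.02, -0.15 and -0.08 in db/+ and -0.39, -0.45, -0.56, -0.41 and -0.34 in db/db, without overlap, though all arrays of both groups were below the reference. The difference was -0.31 ± 0.05 (SE), 1.24-fold lower. After quantile normalization of the ratios between arrays it was -0.09 and no longer past the threshold.

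Of the 10 genes, 8 had at least 3 values in each group. Among these 8, Slc30a7, Slc39a11 and Slc39a13 were past the threshold as higher, Slc30a1, Mt1 and Mtf1 as lower, and Slc30a5 and Slc39a10 were not past it, where 35.2% of all genes were called. The same 6 had groups that did not overlap, where 26.1% of all genes with 10 values had. The median difference of the 8 was 0.06. Nothing is read from these counts, because the genes were picked with this contrast known.

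Genes called as targets of Mtf1 in earlier work on mouse or human cells were counted beside it. Of the 13 listed, 12 could be fitted, of which 2 were higher and 4 lower, with a median difference of -0.23, where 17.1% of all genes were higher and 18.1% lower. Genes that Mtf1 turns up or down were not told apart, so no activity of Mtf1 is read from the median. Leaving aside Slc30a1, Mt1, Mt2 and Slc39a10, 9 were fitted, 2 higher and 2 lower. Selenow, a small selenoprotein, fell by 0.70 ± 0.06 on the log2 scale (SE, adjusted p = 3.89e-05), a 1.63-fold lower level with no overlap. Selenoh, a nuclear selenoprotein named after its values were seen, fell by 0.59 ± 0.11 (adjusted p = 0.00196), 1.51-fold. Csrp1, a cytoskeletal LIM protein, was higher by 0.58 ± 0.18 (adjusted p = 0.0309), and the placental growth factor Pgf by 0.54 ± 0.19 (adjusted p = 0.0498). The call of Csrp1 was lost in 7 and that of Pgf in 8 of the 10 fits that left out 1 array. With quantile normalization or the acinar covariate, 0 genes of the list were higher.

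In the wider family of zinc carriers, metallothioneins and zinc response genes, 27 of 31 listed genes had a probe and 25 could be fitted. Of these, 6 were higher, 5 lower and 14 not past the threshold, with a median of 0.05 against -0.02 for all genes. Of all genes, 17.1% were higher and 18.1% lower. Of 13 Slc39a genes, 5 were higher and 2 lower, with a median of 0.26, and these 5 include Slc39a11 and Slc39a13, which were picked with the contrast known. Of 7 Slc30a genes, 1 was higher and 1 lower, with a median of 0.01. Slc30a3, Slc30a10, Slc39a7 and Tmem163 were not analysed here.

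Among the 17 fitted genes of the family outside the set, 3 were higher and 2 lower, shares near or under the 17.1% and 18.1% of all genes. The called genes were Slc39a2, Slc39a14, Slc39a6, Slc39a5 and Slc39a8. Slc39a2, a plasma membrane importer, read -0.15, -0.18, -0.14, 0.11 and 0.07 in db/+ and 0.51, 0.31, 0.25, 0.54 and 0.56 in db/db. Those Slc39a2 groups did not overlap, and it rose by 0.49 ± 0.09 (SE, adjusted p = 0.00169), 1.41-fold. Slc39a14, which carries zinc, iron and manganese, rose by 0.27 ± 0.05 (adjusted p = 0.0015), 1.21-fold, also without overlap. Slc39a5, an importer of the basolateral membrane of epithelia and acinar cells, fell by 0.31 ± 0.06 (adjusted p = 0.00362), 1.24-fold, without overlap. With the mean ratio of the acinar markers as a covariate, or from the Cy5 signal alone, the call of Slc39a5 was lost. Calls of Slc39a2 and Slc39a14 were lost from the Cy5 signal alone, and those of Slc39a14 and Slc39a5 after quantile normalization.

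The remaining calls of the family were marginal. Slc39a6, an importer of the plasma membrane, was higher by 0.20 ± 0.07 (adjusted p = 0.0499), with overlapping groups, and lost its call in 8 of 10 fits that left out 1 array. Slc39a8, which carries zinc, manganese and cadmium, was lower by 0.34 ± 0.11 (log2 difference -0.34, adjusted p = 0.0425), without overlap, and lost its call in 6 of 10 such fits. Outside the set, the brightest family genes with no call were Slc39a9 at 0.26 ± 0.11 (adjusted p = 0.107), Slc39a1 at 0.26 ± 0.15 (adjusted p = 0.223), Slc30a4 at 0.36 ± 0.13 (adjusted p = 0.056) and Mt3, given above. Slc39a9 rested on 3 db/+ values. Some uncalled genes gained a call under alternatives: Slc30a4 in 6 and Slc39a4 in 5 of 20 fits. Slc39a3 did in 4, Slc30a2 in 2 and Gpr39 in 1 of 19 fits.

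**Figure D4:**
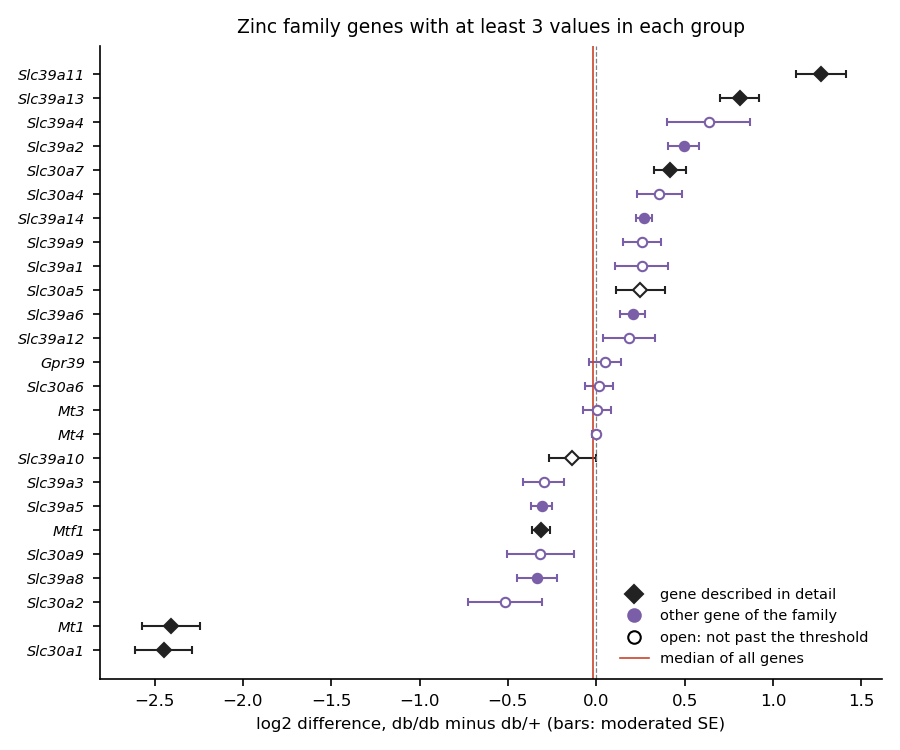
Log2 difference between db/db and db/+ islets with its SE for the 25 fitted genes of the zinc family. Slc30a1 and Mt1 lie at -2.45 and -2.41, Slc39a11 at 1.27 and Slc39a13 at 0.81, and every other gene lies between -0.52 and 0.64.

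Genes of iron and copper handling were counted in the same fit for comparison. Of 22 fitted, 4 were higher and 4 lower, with a median of -0.08, a share of calls near the 35.2% of all genes. The iron exporter Slc40a1 rose by 1.18 ± 0.05 (adjusted p = 1.03e-06), 2.27-fold. Sco2, a copper chaperone of cytochrome oxidase, rose by 0.27 ± 0.05 (adjusted p = 0.00149), and Sod1, the copper and zinc superoxide dismutase, by 0.43 ± 0.09 (adjusted p = 0.0075, 3 db/+ values). The calls of Sco2 and Sod1 were lost from the Cy5 signal alone, and that of Sod1 also after quantile normalization. Lower were the copper exporter Atp7a at -0.80 ± 0.11 (adjusted p = 0.000407), Commd1, which takes part in copper handling, at -0.48 ± 0.10 (adjusted p = 0.00575), and the iron regulatory protein Aco1 at -0.43 ± 0.07 (adjusted p = 0.00124), whose call was lost after quantile normalization.

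Summed signals of markers of the cells that an islet preparation holds differed between the genotypes for several lists, and a sum can rest on 1 bright gene. Of all genes, 17.1% were higher and 18.1% lower. The beta and stellate lists are given above with Slc30a8 and Slc39a13. The 6 alpha cell markers with all values summed to 21.35 to 30.28 units in db/db and 9.67 to 11.14 units in db/+, with 3 of 6 higher. Gcg, also on that list, was blank on every db/db array and had values on 2 db/+ arrays, so it could not be compared. Gc alone had a mean of 21.34 units in db/db and 7.71 in db/+. Macrophage markers summed to 26.16 to 34.06 units in db/db and 16.4 to 26.7 units in db/+, with 4 of 8 higher and overlapping ranges. Most of that sum came from C1qa, at a mean of 14.22 units in db/db and 8.05 in db/+, and Itgam, at 12.08 and 12.23 units. Duct markers summed to 24.11 to 29.81 units in db/db and 16.27 to 22.78 units in db/+, with 2 of 7 higher. Spp1 alone had a mean of 19.68 units in db/db and 14.27 in db/+. The 9 acinar markers with all values summed to 21.03 to 46.59 units in db/db and 43.36 to 65.61 units in db/+, with 2 of 9 lower and overlapping ranges. Another 6 had too few values for the fit. Of these, Spink1 read 0.30 to 1.43 on the 5 db/db arrays, and -0.53 and 0.31 on 2 db/+ arrays. Try4 read 0.72 on 1 db/db array. The db/db means of Cpa1, Cela1, Cela2a and Pnlip lay below the reference, from -0.85 to -0.19. The 3 delta and PP cell markers with all values summed to 3.04 to 4.31 units in db/db and 4.84 to 6.75 units in db/+, with 1 higher and 1 lower. Sst, outside the sum with 3 db/+ values, was also lower, at -0.86 ± 0.15 (SE). Of the 4 fitted markers of this list, 1 was thus higher and 2 lower. Rbp4, at a mean of 2.25 units in db/db and 4.80 in db/+, was lower, and Hhex was higher. The 7 endothelial markers summed to 10.33 to 14.62 units in db/db and 6.4 to 10.3 units in db/+, with 1 higher and 1 lower. Plvap, at a mean of 9.38 units in db/db and 4.96 in db/+, was higher and Tie1 was lower, and the median log2 difference of the 7 was -0.06. No Cy5 signal of these markers was 0 on any array. The part of these cells in the differences of Slc30a1, Mt1 and the importers was not tested.

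The Cy3 channel, the denominator of the ratios, was also compared between the arrays of the 2 groups. The same kind of db/+ reference RNA was on every array, so this describes the reference only, and nothing about the islets is read from it. In limma on the quantile-normalized log2 Cy3 signal, 0 of the 9 tested probes of the set differed between the arrays of the 2 groups (lowest adjusted p = 0.871), where 0.0216% of 23138 probes were called. At an unadjusted p of 0.05, 1 of the 9 passed, Slc39a10 at -0.29 ± 0.08 (unadjusted p = 0.00573), where 4.81% of all probes did. For Slc30a1 the reference differed by -0.01 ± 0.06 and for Mt1 by -0.03 ± 0.12 on the log2 scale.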

How the data were processed

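Islet RNA of 5 db/db and 5 db/+ biological replicates was amplified in 2 rounds from 100 ng, per the labels, and the submitters' processing notes name Agilent Feature Extraction 8.5.1.1. The deposited intensities of Cy5 and Cy3 have arbitrary units and are mostly rounded to steps of 0.01. The deposited log10 ratios were checked to equal log10 of Cy5 over Cy3 within 5.0e-07, with a median of 0 on every array. The sources used here do not say how background was subtracted, dyes were normalized or spots were blanked. The authors' 10 columns of p-values per array were not used.

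Ratios were turned into log2 with no pseudocount. A probe needed 3 or more values per group, and the probe brightest in Cy3 on average stood for its gene. Symbols were matched to RefSeq (GRCm38.p6) by current symbol for 18956 probes, synonym for 1775 and accession for 623. The file's own symbol was kept for 913, and 1245 had no name and were left out of the gene fit. The 2-sided comparison of the genotypes used lmFit and eBayes of limma 3.58.1 (R 4.3.3) without covariates, with Benjamini-Hochberg adjustment over 19567 genes and a threshold of 0.05, and was tested on simulated data. SE is the moderated standard error, and a fold is the log2 difference turned back to a linear scale. The labels call the samples biological replicates and do not say whether each is 1 mouse. The Cy3 test covered 23138 probes.

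The 10 genes and the gene lists were chosen with earlier results of these data known. Named genes are the 10 with all their probes, every called gene of the zinc family list and up to 4 more of it by highest mean Cy3, up to 3 per direction of smallest adjusted p in the Mtf1 target and the iron and copper lists, and the 3 genes nearest to Slc30a1 and to Mt1. Slc30a6, Mt4 and Selenoh were named after their values were seen. Alternatives covered normalization within and between arrays, the Cy5 signal alone, dim probes, probes per gene, variance models, array weights, complete values, an acinar covariate, the replicate number as a block and leaving out each array. Other steps used Python 3.11.15, pandas 2.3.3 and matplotlib 3.10.9.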

Additional observations from a re-analysis of the deposited data

Results flagged for a closer look

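Over 20 groups of 5 arrays, Dixon's test at 95% picked out 2 single values, and chance alone picks about 1 in 20 groups. The dimmer Slc30a7 probe read 0 on db/db replicate 2, apart from the other 4 db/db arrays at -0.17 to -0.13. Slc39a10 read 0.263 on db/+ replicate 2, where the other db/+ arrays read 0. Both probes are dim, with mean reference signals of 0.098 and 0.045 units, where 1 rounding step of 0.01 units moves the ratio.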

How the results depend on the processing

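Quantile normalization of the ratios changed the counts most: it called 1677 genes higher and 1508 lower (3349 and 3546 as reported), 3 zinc family genes higher and 2 lower (6 and 5), 0 Mtf1 targets higher (2) and 2 iron and copper genes lower (4). With the acinar covariate, 3 zinc family genes were lower and 0 Mtf1 targets higher. From the Cy5 signal alone, 2 iron and copper genes were higher (4). Mtf1 targets called higher numbered 1 from Cy5 alone, with array weights, with every probe apart and with the mean of probes. Leaving out 1 array gave 2961 to 3300 genes higher and 3077 to 3494 lower, 5 to 8 zinc family genes higher and 4 to 6 lower, 0 to 2 Mtf1 targets higher and 4 to 5 lower, and 4 to 5 iron and copper genes in either direction. Of 173 values of the 10 genes of the set under alternatives, ratios to the reference for Slc30a8 and Mt2, 0 reversed and 6 moved by more than the spread between replicates: Slc30a7 to 0.19 (mean of probes) and 0.21 (quantile), Slc39a10 to -0.43 (Cy5 alone), and under quantile normalization Slc39a11 to 0.92, Slc39a13 to 0.58 and Mtf1 to -0.09. The cause of these shifts was not tested. Many of the 173 could not move. The replicate block, the trended variance and complete values leave the difference of a gene with all values unchanged. Averaging probes does so for a gene with 1 probe, and dropping dim probes for a bright gene. The count therefore overstates how firm the values are. Deviations of same-numbered arrays correlated weakly, at 0.0359 to 0.221 over 18692 genes, and only number 4 correlated best with its own. These correlations do not settle whether replicate numbers pair the samples, and the reported fit used no pairing. With the replicate number as a block, 3251 genes were higher and 3529 lower, and 7 zinc family genes were higher and 5 lower. In that fit Slc30a4, Slc30a5 and Slc39a3 gained a call, and Slc39a6, Slc39a8 and Sod1 lost theirs. Rounding limits ratios of dim probes, and blanks limit bright ones.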
